A study of Homo sapiens with 18 samples.

Results

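POU3F1, POU3F2 and POU3F3 encode transcription factors of the POU class III family, and they were followed here through 18 RNA sequencing libraries of melanoma cells. They are 3 of the 63677 genes in the deposited count table. They were taken by symbol (ENSG00000185668, ENSG00000184486 and ENSG00000198914) and were chosen by their TMM-scaled levels across the 6 groups, so their values are given as a description, with no test. All 3 passed the filter on low counts, as did 18121 genes in all. WM989, an established human melanoma line, was treated for 7 days with 4 µM EPZ5676, a compound that blocks the histone methyltransferase DOT1L, or with DMSO. The groups of 3 libraries each were EPZ5676 bulk, DMSO bulk, EPZ5676 high, DMSO high, EPZ5676 low and DMSO low. Bulk libraries came from the whole culture. High libraries held sorted cells with high NGFR and EGFR, and low libraries sorted cells with low levels of both, so the sort itself fixes the direction of those genes. All groups are the same line in the same medium.

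POU class III proteins bind octamer-like DNA through a POU-specific domain and a POU homeodomain joined by a linker, and their genes have no introns. POU3F1 (OCT6, SCIP) drives the passage of Schwann cells into myelination, and POU3F2 (BRN2) overlaps with it there and also acts in hypothalamic and cortical neurons. In melanoma POU3F2 has been described as a driver of invasion that represses MITF, the master factor of melanocyte differentiation, and whose own transcription responds to Wnt and MAPK signalling. POU3F3 (BRN1) acts with POU3F2 in the developing mouse cortex.

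The 250 bases before the annotated start of POU3F1 and of POU3F2 are shown because these genes followed different patterns across the sorts and because TCF/LEF proteins are among the reported regulators of POU3F2. They come from RefSeq on GRCh38.p14, at chr1:38046794-38047043 on the minus strand for POU3F1 and chr6:98834324-98834573 on the plus strand for POU3F2. Capitals mark the letters CCAAT and, in POU3F2, ATCAAAG.
POU3F1: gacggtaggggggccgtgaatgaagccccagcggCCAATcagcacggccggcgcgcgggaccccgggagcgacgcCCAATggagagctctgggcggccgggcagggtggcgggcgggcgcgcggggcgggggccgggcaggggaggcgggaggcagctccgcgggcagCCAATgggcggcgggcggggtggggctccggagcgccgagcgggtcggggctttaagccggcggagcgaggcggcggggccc
POU3F2: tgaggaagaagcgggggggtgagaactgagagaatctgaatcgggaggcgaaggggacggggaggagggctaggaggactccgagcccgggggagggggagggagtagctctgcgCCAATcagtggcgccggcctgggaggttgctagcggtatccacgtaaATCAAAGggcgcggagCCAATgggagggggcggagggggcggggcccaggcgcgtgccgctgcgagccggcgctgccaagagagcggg
Both strands of this window were searched. CCAAT occurred 3 times in POU3F1, 2 times in POU3F2 and 3 times in POU3F3, always in the forward direction. On either strand it occurred in 32.0% of 35116 promoters of the same length. The TCF/LEF letters ATCAAAG occurred 1 time in POU3F2, 0 times in the other members, and in 2.26% of all promoters. The octamer ATGCAAAT, the E-box CACGTG, the M-box core CATGTG and TATAAA were not in these windows of the 3 genes, and were in 1.63%, 6.34%, 9.42% and 10.7% of all promoters. The window was 80.8% G and C in POU3F1 and 69.2% in POU3F2, against a median of 58.0% over all promoters. A match of letters is a description of sequence and not a binding site.

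Gene counts summed to between 13383741 and 26311674 per library. Levels are CPM, counts scaled to the size of the library after TMM correction, given as mean ± SD over n = 3 libraries. Each fold change is a log2 value ± SE from edgeR's quasi-likelihood fit over all 18 libraries, and adjusted p-values for genes outside the family come from the same fit with Benjamini-Hochberg correction over 18121 genes. Nothing in the labels says that replicates were separate cultures, so SE and p measure only the spread between these samples, which may be technical. DMSO bulk replicate 1 stood apart, with 220.3 CPM of NGFR against 12.6 and 9.24 CPM in the other DMSO bulk libraries. In 6 libraries, 18.9% to 28.7% of reads fell on no feature, against 12.8% to 15.2% in the others: EPZ5676 bulk replicates 1 and 3, EPZ5676 high replicates 1 and 2, EPZ5676 low replicate 1 and DMSO high replicate 3. They are called the high no-feature libraries. The 8 melanocyte markers were above 0 in every group, whereas PECAM1 of endothelium had 0 CPM in all libraries, KRT5 of keratinocytes at most 0.0559 CPM and PTPRC of leukocytes at most 1.19 CPM. Other markers of these cell types were present. The 6 endothelial markers summed to 23.2 to 39.5 CPM over the libraries, and the 6 keratinocyte markers to 25.1 to 43.2 CPM. The 6 leukocyte markers summed to 0.548 to 2.72 CPM, and the part of these lists in the results was not tested. NGFR averaged 727 ± 70.6 CPM in EPZ5676 high, 572 ± 40.8 in DMSO high, 3.85 ± 2.91 in EPZ5676 low and 1.00 ± 0.527 in DMSO low libraries. The 8 fibroblast markers summed to 603 to 743 CPM in EPZ5676 high and 1076 to 1411 CPM in DMSO high libraries, against 97.7 to 100.3 CPM in EPZ5676 low and 72.4 to 75.5 CPM in DMSO low libraries, and their part in the differences between sorts was not tested. DOT1L, whose protein EPZ5676 binds, averaged 125 ± 3.22 CPM in EPZ5676 bulk and 149 ± 19.2 CPM in DMSO bulk libraries, and its RNA does not read out inhibition of the enzyme.

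POU3F1 RNA was abundant in low and bulk cells and scarce in high cells. In EPZ5676 high libraries it stood at 4.79, 3.41 and 3.64 CPM, against 49.1, 44.1 and 44.8 CPM in EPZ5676 low libraries. In DMSO high libraries it stood at 2.61, 1.98 and 3.39 CPM, against 55.7, 45.7 and 54.5 CPM in DMSO low libraries. Every high library lay far below every low library under both treatments. Among all genes, 28.8% under EPZ5676 and 28.7% under DMSO likewise had every high library below every low library. These values rested on 61 to 82 counts in EPZ5676 high and 41 to 49 counts in DMSO high libraries, against 700 to 1075 counts in EPZ5676 low and 909 to 1213 counts in DMSO low libraries. The log2 fold change of high against low was -3.55 ± 0.41 under EPZ5676 and -4.32 ± 0.44 under DMSO, which placed POU3F1 at ranks 35 and 31 from the lowest of 18121 genes. As a ratio of mean CPM the high sort was 11.7-fold lower than the low sort under EPZ5676 and 19.5-fold lower under DMSO. The change of the log2 difference with treatment was 0.77 ± 0.62. Each SE of POU3F1 draws on a spread shared by all 18 libraries. That spread includes DMSO bulk replicate 1, at 11.5 CPM, which is in none of these 4 groups. In RNA of a whole population, fewer cells with POU3F1 and less POU3F1 RNA per cell cannot be told apart.

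**Figure D1:**
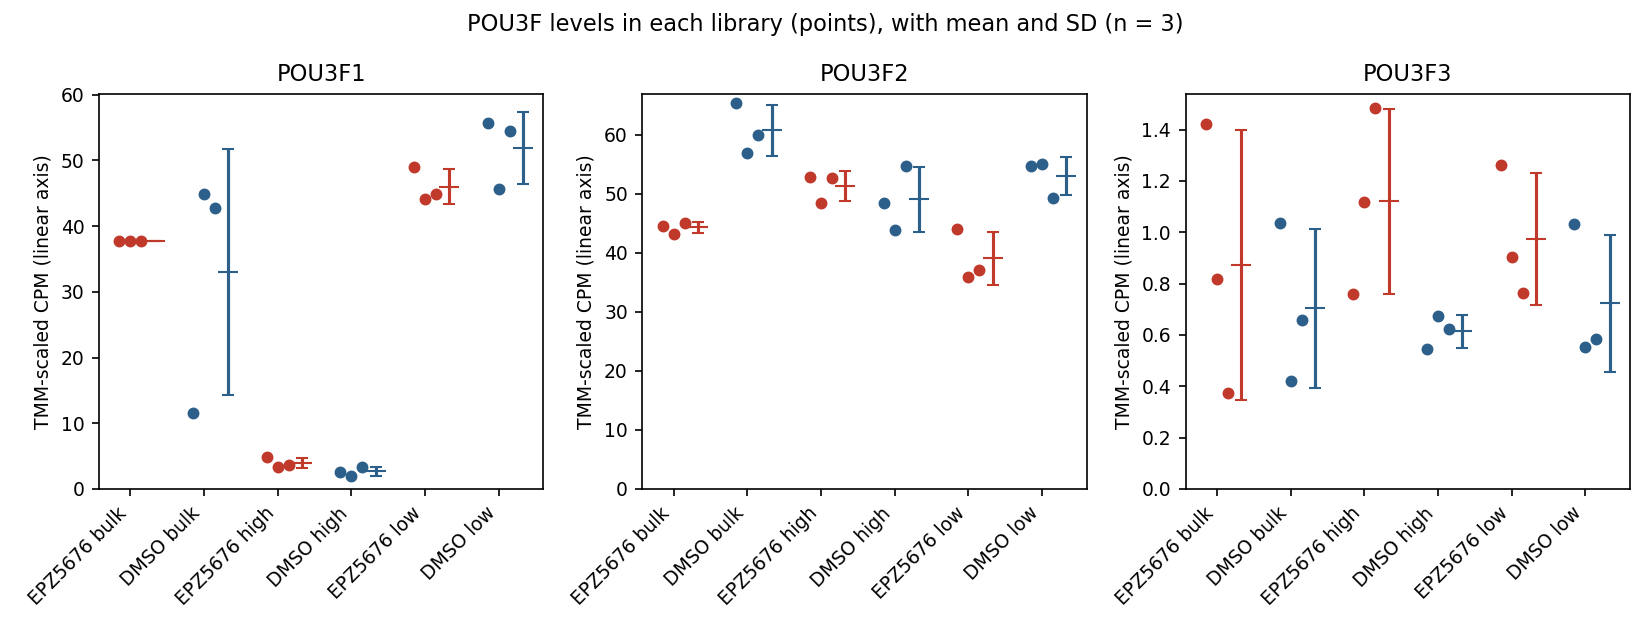
Levels of POU3F1, POU3F2 and POU3F3 in each library, as TMM-scaled CPM on linear axes from 0, with EPZ5676 libraries in red and DMSO libraries in blue; points are libraries, and bars are mean and SD (n = 3). POU3F1 lies between 1.98 and 4.79 CPM in all 6 high libraries and at 11.5 CPM or more in every other one, POU3F2 stays between 35.9 and 65.4 CPM throughout, and POU3F3 never passes 1.48 CPM.

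Between treatments POU3F1 differed far less than between sorts. In high cells it was at 4.79, 3.41 and 3.64 CPM with EPZ5676, against 2.61, 1.98 and 3.39 CPM with DMSO. The lowest EPZ5676 library was just above the highest DMSO library, and 12.7% of all genes had every EPZ5676 high library above every DMSO high library. The log2 fold change was 0.59 ± 0.52, and 0.60 ± 0.17 without DMSO bulk replicate 1, which is in neither group but enters the shared estimate of spread. In low cells the treatments overlapped, at 44.1 to 49.1 CPM with EPZ5676 and 45.7 to 55.7 CPM with DMSO (-0.18 ± 0.33). In bulk cells the EPZ5676 libraries had 37.7, 37.8 and 37.7 CPM, and the DMSO libraries 11.5, 44.9 and 42.8 CPM, so the treatments overlapped, where 8.21% of all genes had every EPZ5676 library above every DMSO library. The 11.5 CPM belonged to replicate 1, the library that stood apart, and lay between the high and the low sorts. The bulk fold change was 0.18 ± 0.34 with that library and -0.22 ± 0.10 without it, so its direction turned on 1 library.

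Of 6 genes used as markers of low cells, 2 were called higher with EPZ5676 in high cells, DCT (1.37 ± 0.25, adjusted p = 0.0128) and CAPN3 (2.23 ± 0.43, adjusted p = 0.00505). Among all genes tested 1.95% were called higher in that comparison. PMEL, RLBP1, TRPM1 and MLANA did not pass, at 0.72 ± 0.24, 0.73 ± 0.41, 1.10 ± 0.46 and 0.14 ± 0.19. POU3F1 in the high sort was at 8.58% under EPZ5676 and 5.12% under DMSO of its level in the low sort. DCT, an enzyme of melanin synthesis, was at 9.93% under EPZ5676 and 5.62% under DMSO. PMEL, a melanosome fibre protein, was at 8.53% under EPZ5676 and 6.64% under DMSO, so POU3F1 lay among these genes. The 6 markers DCT, PMEL, MLANA, TRPM1, CAPN3 and RLBP1 summed to 1061 to 1188 CPM in EPZ5676 high and 633 to 720.2 CPM in DMSO high libraries, against 12473 to 12585 CPM in EPZ5676 low and 9677 to 10273 CPM in DMSO low libraries. None of the 6 was at 0 in any group, and their part in the POU3F1 level of high cells was not tested.

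**Figure D2:**
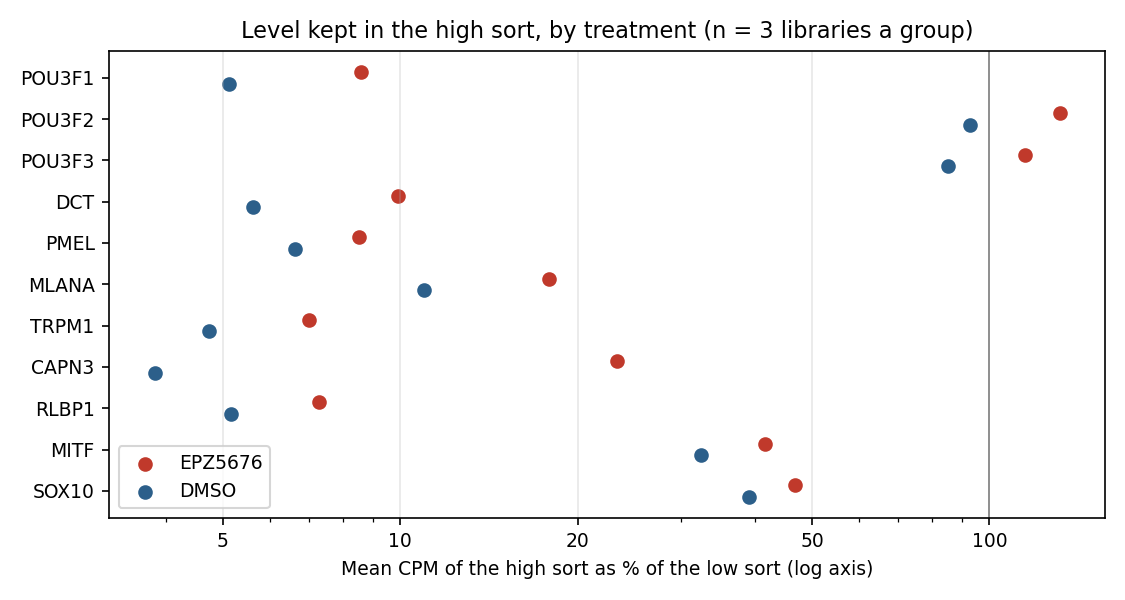
Mean CPM in the high sort as a percentage of that in the low sort, under EPZ5676 and under DMSO, for the 3 POU3F genes, the 6 genes used as low-sort markers, MITF and SOX10 (3 libraries a group). POU3F1, at 8.58% under EPZ5676 and 5.12% under DMSO, lies among the low-sort markers, MITF is at 41.6% under EPZ5676 and 32.4% under DMSO, and POU3F2 is at 132% under EPZ5676 and 92.6% under DMSO.

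POU3F2 RNA was present in every population, from 35.9 to 65.4 CPM over the 18 libraries, on 602 to 1279 counts. EPZ5676 high libraries had 52.9, 48.4 and 52.7 CPM, against 44.1, 35.9 and 37.1 CPM in EPZ5676 low libraries. DMSO high libraries had 48.4, 43.9 and 54.7 CPM, against 54.6, 54.9 and 49.3 CPM in DMSO low libraries. Under EPZ5676 every high library lay above every low library, as was so for 31.5% of all genes (31.6% under DMSO), and under DMSO the sorts of POU3F2 overlapped. The log2 fold change of high against low was 0.40 ± 0.09 under EPZ5676 and -0.11 ± 0.08 under DMSO. The difference between these was 0.51 ± 0.12.

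EPZ5676 libraries had less POU3F2 RNA than DMSO libraries in bulk and in low cells. In bulk they stood at 44.6, 43.2 and 45.1 CPM, against 65.4, 56.9 and 60.0 CPM with DMSO. In low cells they stood at 44.1, 35.9 and 37.1 CPM, against 54.6, 54.9 and 49.3 CPM with DMSO. In neither population did the treatments overlap, which was also so, in this direction, for 7.64% of all genes in bulk and 11.5% in low cells. The log2 fold changes were -0.46 ± 0.08 in bulk and -0.44 ± 0.08 in low cells. Without DMSO bulk replicate 1, the highest library, the bulk value was -0.40 ± 0.08. With the 6 high no-feature libraries left out, the values were -0.49 ± 0.11 in bulk and -0.53 ± 0.09 in low cells, with 1 EPZ5676 bulk library left, assumed to vary like the other groups. In high cells the treatments overlapped, at 48.4 to 52.9 CPM with EPZ5676 and 43.9 to 54.7 CPM with DMSO (0.07 ± 0.08).

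**Figure D3:**
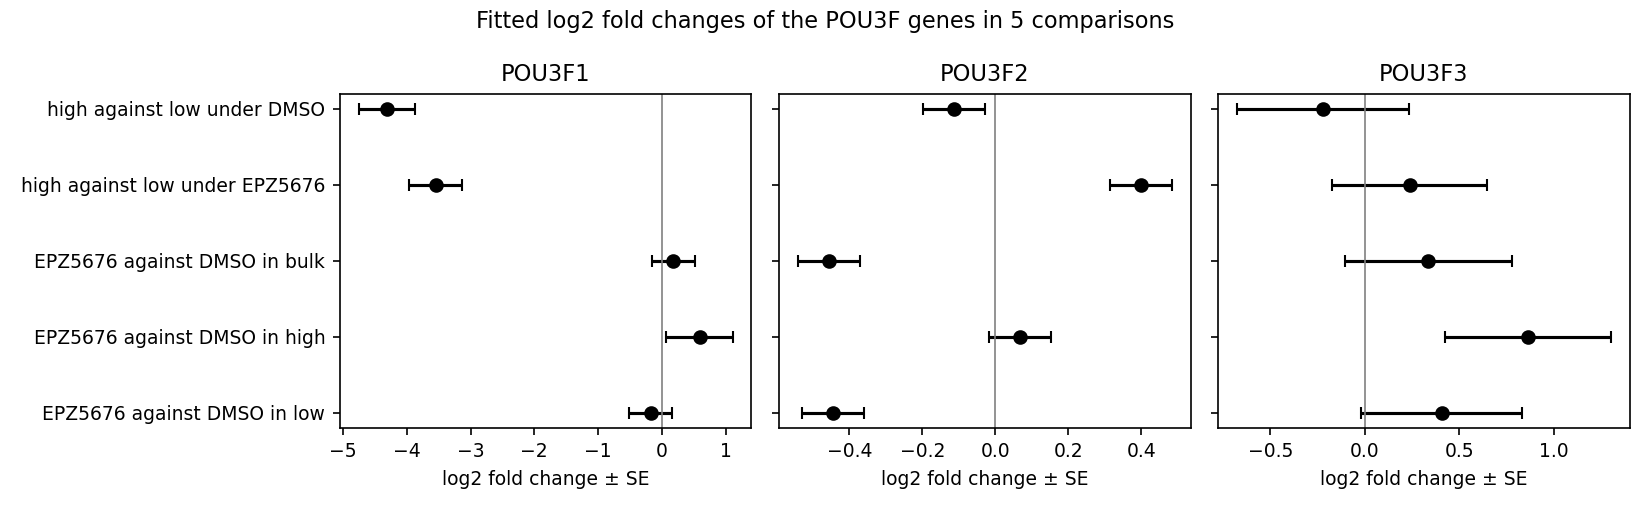
Fitted log2 fold changes ± SE of POU3F1, POU3F2 and POU3F3 in 5 comparisons (rows), from 1 fit over 18 libraries, with a horizontal scale of its own for each gene. POU3F1 shows -3.55 and -4.32 between sorts under EPZ5676 and DMSO and, between treatments, 0.18 for bulk, 0.59 for the high sort and -0.18 for the low sort, where POU3F2 shows -0.46, 0.07 and -0.44.

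POU3F3 was close to the limit of detection, with 5 to 31 counts per library and 285 in all. It stood at 1.42, 0.820 and 0.374 CPM in EPZ5676 bulk and 1.04, 0.421 and 0.657 CPM in DMSO bulk libraries. It stood at 0.760, 1.12 and 1.48 CPM in EPZ5676 high and 0.547, 0.675 and 0.624 CPM in DMSO high libraries. In low cells it stood at 1.26, 0.903 and 0.762 CPM with EPZ5676 and 1.03, 0.552 and 0.584 CPM with DMSO. The treatments did not overlap in high cells, by 0.760 against 0.675 CPM, and overlapped in bulk and low cells. In high cells 12.7% of all genes likewise had every EPZ5676 library above every DMSO library. Its log2 fold change with EPZ5676 was 0.34 ± 0.44 for bulk, 0.87 ± 0.44 for high and 0.41 ± 0.42 for low cells. Between the sorts it was 0.24 ± 0.41 under EPZ5676 and -0.22 ± 0.46 under DMSO, and a difference was not detectable at this depth. POU3F4, the remaining gene of the class, had 0 counts in all 18 libraries, where the limit that a count of 0 allows (3 counts) was 0.114 to 0.224 CPM.

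The order of the groups differed between the members. POU3F1 was highest in DMSO low, then EPZ5676 low, EPZ5676 bulk, DMSO bulk, EPZ5676 high and DMSO high libraries. Neighbours in that order overlapped between DMSO low and EPZ5676 low and between EPZ5676 bulk and DMSO bulk, and did not overlap elsewhere. POU3F2 was highest in DMSO bulk, then DMSO low, EPZ5676 high, DMSO high, EPZ5676 bulk and EPZ5676 low libraries, and among these neighbours DMSO bulk and DMSO low alone did not overlap. For POU3F3 all neighbours in order overlapped. Groups were ordered by their means first, which favours neighbours that do not overlap. Among all genes 12.7% had every EPZ5676 high library above every DMSO high library. For pairs of bulk with a sort no such share was counted.

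Levels can be set between the members once divided by exon length, taken from GENCODE 29. In high cells POU3F1 stood at 1.81 ± 0.340 CPM per kb with EPZ5676 and 1.22 ± 0.325 with DMSO, where POU3F2 stood at 10.5 ± 0.516 with EPZ5676 and 10.05 ± 1.11 with DMSO. In low cells POU3F1 stood at 21.1 ± 1.22 CPM per kb with EPZ5676 and 23.8 ± 2.51 with DMSO, where POU3F2 stood at 8.0 ± 0.906 with EPZ5676 and 10.9 ± 0.649 with DMSO. POU3F2 was thus the more abundant transcript per length in high cells and POU3F1 in low cells. Before division by length, DMSO low libraries averaged 51.9 CPM of POU3F1 and 53.0 of POU3F2, and EPZ5676 low libraries 46.0 and 39.0. In DMSO low cells the order therefore rests on the lengths used, 2184 bases for POU3F1 and 4879 for POU3F2. The annotation behind the counts is not given, so the counted lengths may differ. The per-length ratio of POU3F1 to POU3F2 was 0.171 ± 0.0271 in EPZ5676 high, 0.120 ± 0.0190 in DMSO high, 2.64 ± 0.139 in EPZ5676 low and 2.20 ± 0.314 in DMSO low libraries. POU3F3 stayed between 0.201 and 0.366 CPM per kb as a group mean. How reads shared by the conserved POU domains were assigned, and whether strand was used, is not given in the sources used here, so reads of a near-identical stretch of a paralogue or of an antisense transcript cannot be told apart from the members' own.

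MITF, which POU3F2 is reported to repress, was lower in high than in low cells under both treatments. It averaged 239 ± 20.2 CPM in EPZ5676 high and 575 ± 8.74 in EPZ5676 low libraries, and 193 ± 11.1 in DMSO high and 596 ± 39.8 in DMSO low libraries. The log2 fold changes were -1.27 ± 0.10 under EPZ5676 (adjusted p = 6.88e-08) and -1.63 ± 0.10 under DMSO (adjusted p = 2.27e-09). Per 100 CPM of MITF there were 1.67 ± 0.427 CPM of POU3F1 in EPZ5676 high, 1.37 ± 0.297 in DMSO high, 8.0 ± 0.509 in EPZ5676 low and 8.73 ± 0.911 in DMSO low libraries. The same ratio for POU3F2 ran the other way, at 21.6 ± 1.98 in EPZ5676 high, 25.3 ± 1.57 in DMSO high, 6.79 ± 0.804 in EPZ5676 low and 8.90 ± 0.475 in DMSO low libraries. DMSO bulk replicate 1 had 396 CPM of MITF, 11.5 CPM of POU3F1 and 65.4 CPM of POU3F2, the highest POU3F2 level of the 18 libraries.

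**Figure D4:**
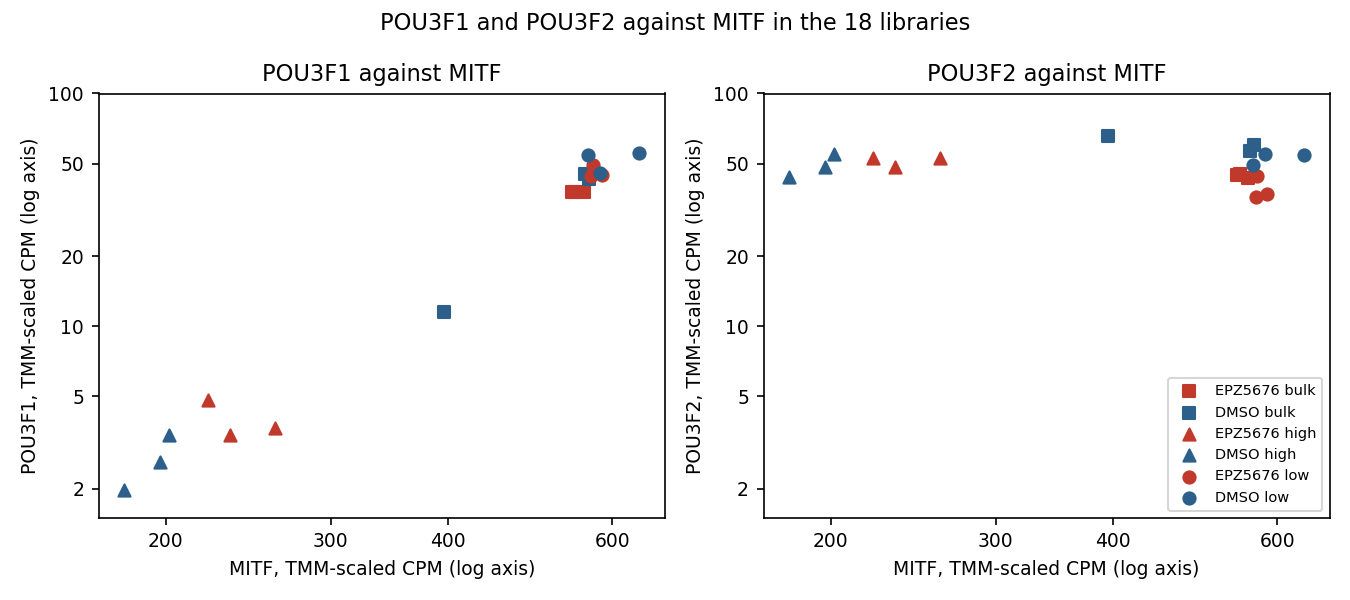
POU3F1 and POU3F2 against MITF in the 18 libraries, as TMM-scaled CPM, with symbols for the sort and colours for the treatment. POU3F1 is low where MITF is low, with DMSO bulk replicate 1 at 11.5 CPM between the high and low sorts, while POU3F2 stays between 35.9 and 65.4 CPM over the whole range of MITF.

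The genes with the profiles most like those of POU3F1 and of POU3F2 differed. Likeness was Pearson's r of log2 CPM over the 18 libraries, among 10395 protein-coding genes with a mean of at least 5 CPM. For POU3F1 the closest were GATA4 and TTYH2 and then NARS2, DIP2B and FRMD4B (r = 0.996 to 0.995), and the most opposed were GNG11, TIPARP and PLAUR (r = -0.996 to -0.995). The libraries form clusters by sort, and these values reflect mainly the step between high and low cells. GATA4, a zinc finger factor known from heart and gut, averaged 28.5 ± 0.660 CPM in EPZ5676 high, 24.7 ± 1.73 in DMSO high, 117 ± 4.40 in EPZ5676 low and 124 ± 2.92 in DMSO low libraries. PLAUR, the urokinase receptor, averaged 177 ± 5.11 CPM in EPZ5676 high, 233 ± 23.5 in DMSO high, 23.4 ± 1.13 in EPZ5676 low and 24.0 ± 2.53 in DMSO low libraries.

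For POU3F2 the closest profiles were those of ID4 (r = 0.90), MTHFD1L (r = 0.86), GNB4, ZNF704 and DCUN1D4, and the most opposed those of EEF1A2 (r = -0.89), HERPUD1 and MFSD6. ID4, an inhibitor of basic helix-loop-helix factors, averaged 40.7 ± 2.98 CPM in EPZ5676 bulk and 52.7 ± 4.98 in DMSO bulk libraries, and 37.6 ± 4.55 in EPZ5676 low and 45.9 ± 1.64 in DMSO low libraries. EEF1A2, a translation elongation factor, averaged 137 ± 4.22 CPM in EPZ5676 bulk and 87.5 ± 11.2 in DMSO bulk libraries, and 156 ± 9.09 in EPZ5676 low and 103 ± 6.05 in DMSO low libraries. For POU3F3 the highest r was 0.79, for FKBP14, and at counts this sparse it is no finding.

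Genes directly beside the members in the annotation were read in the same fit. UTP11, a ribosome assembly gene beside POU3F1, was lower in high cells, with -0.46 ± 0.10 under EPZ5676 (adjusted p = 0.000459) and -0.58 ± 0.10 under DMSO (adjusted p = 3.25e-05), beside -3.55 ± 0.41 under EPZ5676 and -4.32 ± 0.44 under DMSO for POU3F1. MIR3659HG, a non-coding gene beside POU3F1, was rare, at 0.151 ± 0.127 CPM in EPZ5676 high, 0.180 ± 0.110 in DMSO high, 0.873 ± 0.228 in EPZ5676 low and 1.19 ± 0.429 in DMSO low libraries. It was lower in high cells, with -2.52 ± 0.70 under EPZ5676 (adjusted p = 0.00461) and -2.71 ± 0.66 under DMSO (adjusted p = 0.0013). FBXL4, an F-box gene beside POU3F2, was higher in high cells, with 0.28 ± 0.08 under EPZ5676 (adjusted p = 0.00443) and 0.53 ± 0.08 under DMSO (adjusted p = 5.26e-06). Between treatments FBXL4 was -0.12 ± 0.08 in bulk and -0.06 ± 0.08 in low cells, which did not pass, beside -0.46 ± 0.08 and -0.44 ± 0.08 for POU3F2. The non-coding PANTR1 and LINC01159 beside POU3F3 never passed 0.0477 and 0.0693 CPM.

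A further 6 lists held genes tied to these factors in the literature, 89 in all, of which 66 passed the filter, and MITF and PAX3 are in 3 lists each. Between high and low cells 50 of the 66 were called under EPZ5676 and 55 under DMSO, beside 48.9% and 56.3% of all genes tested. The lists were chosen with earlier results of these data known, so an excess over all genes is not read as a link to the members. In the fit that omits the 6 high no-feature libraries 28 were called under EPZ5676 and 50 under DMSO, beside 21.5% and 45.1% of all genes tested, with 1 EPZ5676 high and 2 EPZ5676 low libraries left.

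Of 13 other POU-domain genes, 5 were tested. In high cells 2 rose and 1 fell under EPZ5676 and 3 rose and 1 fell under DMSO. Over all genes tested, 25.8% rose and 23.1% fell under EPZ5676, and 29.6% rose and 26.7% fell under DMSO. POU2F2 (OCT2), known from B cells, stood at 12.2 ± 2.37 CPM in EPZ5676 high against 5.19 ± 0.753 in EPZ5676 low libraries, and at 16.5 ± 2.78 in DMSO high against 3.41 ± 0.579 in DMSO low libraries. It rose, with 1.24 ± 0.32 under EPZ5676 (adjusted p = 0.00506) and 2.27 ± 0.33 under DMSO (adjusted p = 3.42e-05). POU6F1 also rose, with 0.80 ± 0.20 under EPZ5676 (adjusted p = 0.00242) and 1.19 ± 0.20 under DMSO (adjusted p = 3.01e-05). POU4F1 (BRN3A), a factor of sensory neurons, fell, with -0.77 ± 0.15 under EPZ5676 (adjusted p = 0.000198) and -0.88 ± 0.15 under DMSO (adjusted p = 3.96e-05). POU5F1 (OCT4), which has near-identical copies elsewhere in the genome and is uncertain for that reason, lay between 0.0701 and 1.25 CPM and was called under DMSO, with 1.03 ± 0.57 under EPZ5676 (adjusted p = 0.142) and 1.39 ± 0.52 under DMSO (adjusted p = 0.0265), and the change with treatment, -0.36 ± 0.79, did not pass (adjusted p = 0.911). The widely expressed POU2F1 (OCT1) did not pass, at -0.17 ± 0.15 under EPZ5676 and -0.27 ± 0.15 under DMSO. The list median was 0.80 under EPZ5676 and 1.19 under DMSO, against 0.02 and 0.03 for all genes. Once the 6 high no-feature libraries were omitted, 0 were called under EPZ5676, where 1 high library was left, and 4 under DMSO. The fold changes under EPZ5676 were then 0.96 ± 0.53 for POU2F2, 0.80 ± 0.31 for POU6F1 and -0.63 ± 0.27 for POU4F1.

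Reported regulators of POU3F2 split in direction. Of 19, all tested, 8 rose and 6 fell in high cells under EPZ5676 and 10 rose and 6 fell under DMSO, with medians of 0.06 and 0.15. Among all genes 25.8% rose and 23.1% fell under EPZ5676, and 29.6% rose and 26.7% fell under DMSO. EGR1, an immediate early factor of MAPK signalling, stood at 673 ± 12.9 CPM in EPZ5676 high against 256 ± 13.9 in EPZ5676 low libraries, and at 831 ± 89.7 in DMSO high against 156 ± 29.8 in DMSO low libraries. It rose, with 1.40 ± 0.21 under EPZ5676 (adjusted p = 0.00013) and 2.41 ± 0.22 under DMSO (adjusted p = 9.79e-07). The ETS factor ETV1 rose, with 1.62 ± 0.25 under EPZ5676 and 2.30 ± 0.26 under DMSO, and so did the Wnt feedback gene AXIN2, with 1.03 ± 0.22 under EPZ5676 and 2.02 ± 0.22 under DMSO. The T-box repressor TBX3 rose, with 0.65 ± 0.16 under EPZ5676 and 1.36 ± 0.16 under DMSO. Wnt effectors went both ways. CTNNB1, which encodes beta-catenin, fell, with -0.67 ± 0.08 under EPZ5676 and -0.71 ± 0.08 under DMSO, and LEF1 fell, with -0.33 ± 0.07 under EPZ5676 and -0.41 ± 0.07 under DMSO. Their partners TCF7 and TCF7L1 rose, TCF7L1 with 1.30 ± 0.19 under EPZ5676 and 1.47 ± 0.19 under DMSO. The ETS factor ETV4 fell, with -0.76 ± 0.08 under EPZ5676 and -0.88 ± 0.08 under DMSO. TRPM1, host gene of a microRNA reported to target POU3F2 mRNA, fell, with -3.84 ± 0.33 under EPZ5676 and -4.45 ± 0.38 under DMSO. Without the 6 high no-feature libraries 8 were called under EPZ5676 and 14 under DMSO.

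Most reported targets of POU3F2 rose in high cells. Of 10, all tested, 9 rose and 1 fell under EPZ5676 and 8 rose and 1 fell under DMSO, with medians of 0.53 and 0.75. Among all genes 25.8% rose and 23.1% fell under EPZ5676, and 29.6% rose and 26.7% fell under DMSO. The list sets no direction in which POU3F2 would move each gene, and the part of POU3F2 in these changes was not tested. The gene that fell was MITF. KITLG, the ligand of the KIT receptor, stood at 20.2 ± 1.53 CPM in EPZ5676 high against 4.30 ± 1.01 in EPZ5676 low libraries, and at 17.2 ± 1.62 in DMSO high against 2.42 ± 0.164 in DMSO low libraries. It rose, with 2.23 ± 0.36 under EPZ5676 (adjusted p = 0.000147) and 2.83 ± 0.38 under DMSO (adjusted p = 2.33e-05). NFIB, a nuclear factor I gene, rose, with 1.23 ± 0.14 under EPZ5676 and 1.38 ± 0.14 under DMSO. PAX3, a neural crest factor, rose, with 0.84 ± 0.12 under EPZ5676 and 0.83 ± 0.12 under DMSO. EZH2, the catalytic subunit of Polycomb repressive complex PRC2, rose, with 0.53 ± 0.05 under EPZ5676 and 0.35 ± 0.05 under DMSO. With the 6 high no-feature libraries left out, 5 were called under EPZ5676 and 8 under DMSO. POU3F2 itself was at 0.40 ± 0.09 under EPZ5676 and -0.11 ± 0.08 under DMSO in the same comparisons.

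Partners of POU3F1 and POU3F2 in Schwann cells went both ways. Of 16, 14 were tested. In high cells 2 rose and 6 fell under EPZ5676 and 5 rose and 6 fell under DMSO, with medians of -0.02 and 0.00. Over all genes tested, 25.8% rose and 23.1% fell under EPZ5676, and 29.6% rose and 26.7% fell under DMSO. SOX10, which acts with POU3F1 on glial genes, averaged 377 ± 33.3 CPM in EPZ5676 high against 805 ± 20.7 in EPZ5676 low libraries, and 293 ± 51.8 in DMSO high against 749 ± 45.7 in DMSO low libraries. It fell, with -1.09 ± 0.11 under EPZ5676 (adjusted p = 7.69e-07) and -1.35 ± 0.11 under DMSO (adjusted p = 4.55e-08). The myelin gene CNP fell, with -0.91 ± 0.08 under EPZ5676 and -1.15 ± 0.08 under DMSO. EGR2, the myelination factor that POU3F1 precedes in Schwann cells, rose, with 0.84 ± 0.23 under EPZ5676 (adjusted p = 0.00495) and 1.26 ± 0.26 under DMSO (adjusted p = 0.000226), at no more than 4.50 CPM in any library. The myelin gene PMP22 was 0.24 ± 0.07 under EPZ5676 and 0.11 ± 0.07 under DMSO and passed under EPZ5676, and the change with treatment, 0.13 ± 0.10, did not pass (adjusted p = 0.671). The stem cell factor SOX2 was too low to test, at no more than 0.208 CPM. In the fit that omits the 6 high no-feature libraries 4 were called under EPZ5676 and 10 under DMSO.

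Of 25 neural factors known to work beside POU3F proteins, 12 were too low to test. Among these was MYT1L, a zinc finger factor of neurons, at no more than 0.105 CPM. Of the 13 tested, 4 rose and 7 fell in high cells under EPZ5676 and 4 rose and 7 fell under DMSO. Their medians were -0.19 and -0.18. Over all genes tested, 25.8% rose and 23.1% fell under EPZ5676, and 29.6% rose and 26.7% fell under DMSO. SOX6, a factor of oligodendrocyte and chondrocyte lineages, fell, with -1.99 ± 0.17 under EPZ5676 and -2.52 ± 0.18 under DMSO. HES6, an antagonist of HES1, fell, with -1.68 ± 0.15 under EPZ5676 and -1.99 ± 0.15 under DMSO, and ONECUT2 fell, with -1.47 ± 0.20 under EPZ5676 and -1.54 ± 0.20 under DMSO. The Notch target HES1 rose, with 1.06 ± 0.10 under EPZ5676 and 1.23 ± 0.10 under DMSO, and ZIC1 rose, with 0.84 ± 0.12 under EPZ5676 and 1.06 ± 0.12 under DMSO. The proneural NEUROG2 rose, with 1.49 ± 0.34 under EPZ5676 and 2.61 ± 0.40 under DMSO, at no more than 2.15 CPM. The 6 neuron markers summed to 34.4 to 36.0 CPM in EPZ5676 high and 30.0 to 36.6 CPM in DMSO high libraries, against 15.7 to 17.0 CPM in EPZ5676 low and 12.8 to 13.9 CPM in DMSO low libraries, with STMN2 at no more than 0.0559 CPM; their part in these results was not tested. Once the 6 high no-feature libraries were omitted, 8 of the neural factors were called under EPZ5676 and 10 under DMSO.

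Melanocyte lineage factors also split. Of 14, 12 were tested. In high cells 5 rose and 6 fell under EPZ5676 and 5 rose and 6 fell under DMSO, with medians of -0.15 and -0.15. Over all genes tested, 25.8% rose and 23.1% fell under EPZ5676, and 29.6% rose and 26.7% fell under DMSO. IRF4, which works with MITF on pigment genes, stood at 9.80 ± 0.611 CPM in EPZ5676 high against 66.1 ± 5.64 in EPZ5676 low libraries, and at 5.56 ± 1.18 in DMSO high against 52.3 ± 0.842 in DMSO low libraries. It fell, with -2.75 ± 0.29 under EPZ5676 (adjusted p = 6.45e-06) and -3.25 ± 0.32 under DMSO (adjusted p = 1.66e-06). TFAP2A, a neural crest factor, fell, with -0.69 ± 0.10 under EPZ5676 and -0.90 ± 0.10 under DMSO. SOX9 stood at 3.23 ± 0.897 CPM in EPZ5676 high and 6.44 ± 0.999 CPM in DMSO high libraries, against 0 CPM in all EPZ5676 low libraries and at most 0.0449 CPM in DMSO low libraries. CREB1, a cAMP-responsive factor, rose, with 0.33 ± 0.07 under EPZ5676 and 0.45 ± 0.07 under DMSO, and SNAI2, a factor of neural crest migration, rose, with 0.41 ± 0.10 under EPZ5676 and 0.53 ± 0.10 under DMSO. Without the 6 high no-feature libraries 8 were called under EPZ5676 and 11 under DMSO.

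**Figure D5:**
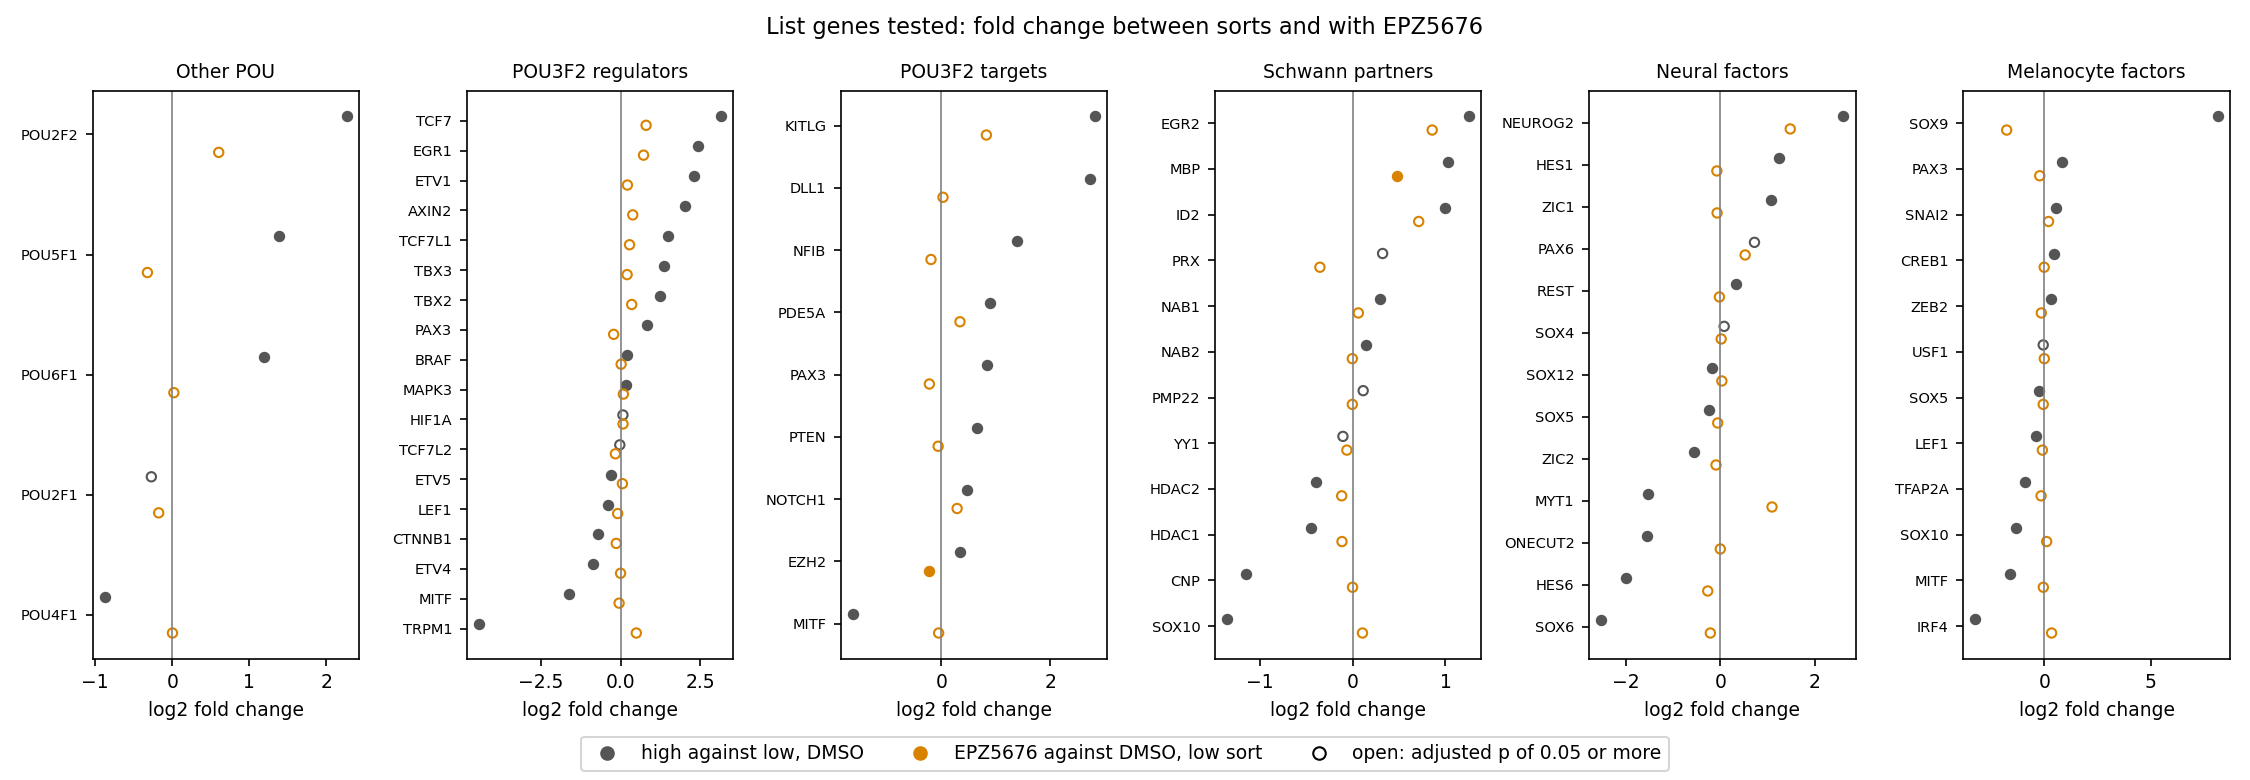
Log2 fold changes of the tested genes of the 6 lists that are reported here, 1 panel a list with its own horizontal scale, for high against low under DMSO (grey) and EPZ5676 against DMSO in low cells (orange); filled points passed an adjusted p of 0.05 and open points did not, and the fitted value of SOX9, which is nearly absent from low cells, gives its direction and not its size. Over the lists in full 55 of 66 genes were called between high and low cells under DMSO and the points spread in both directions, while for EPZ5676 against DMSO in low cells 3 of 66 were called.

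Few of the listed genes differed between treatments. Of the 66, 2 were called in bulk (3.03%), 4 in the high sort (6.06%) and 3 in the low sort (4.55%), beside 0.728%, 3.0% and 1.04% of all genes tested. The shares of the lists were thus above those of all genes, but they rest on few genes and were not tested as a set. The choice of lists with earlier results known applies here too. Among all genes 0.497% rose in bulk, 1.95% in the high sort and 0.712% in the low sort. Without DMSO bulk replicate 1 these counts were 5, 18 and 15, beside 2.93%, 10.7% and 5.15% of all genes tested in that fit. With the 6 high no-feature libraries left out, edgeR called 0 in each population, with 1 bulk, 1 high and 2 low EPZ5676 libraries left. Over all libraries 17, 19 and 10 had an unadjusted p under 0.05, and DESeq2 called 3, 6 and 4. No share of all genes was counted at that unadjusted threshold, so the counts 17, 19 and 10 have no background here. Over all genes DESeq2 called 183 higher and 107 lower in bulk. It called 483 and 305 in the high sort and 189 and 122 in the low sort.

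MBP, a protein of compact myelin, differed in direction between the sorts. It stood at 325 ± 15.5 CPM in EPZ5676 high against 485 ± 13.3 in DMSO high libraries (-0.58 ± 0.08, adjusted p = 0.000183). It stood at 331 ± 3.05 CPM in EPZ5676 low against 237 ± 11.7 in DMSO low libraries (0.48 ± 0.08, adjusted p = 0.00285). The change with sort was -1.06 ± 0.11 (adjusted p = 7.19e-05), in a comparison where 0.32% of all genes were called. In bulk the difference was 0.30 ± 0.08 (adjusted p = 0.0844) over all libraries and 0.44 ± 0.05 (adjusted p = 6.67e-07) without DMSO bulk replicate 1.

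NAB1, a corepressor of EGR proteins, fell with EPZ5676 in high cells, at 59.6 ± 2.22 CPM with EPZ5676 against 69.7 ± 0.698 CPM with DMSO (-0.22 ± 0.06, adjusted p = 0.0387). EZH2 fell in bulk, at 131 ± 2.09 CPM with EPZ5676 against 162 ± 12.1 CPM with DMSO (-0.31 ± 0.05, adjusted p = 0.00729). It also fell in low cells, at 124 ± 4.12 CPM with EPZ5676 against 146 ± 2.32 CPM with DMSO (-0.23 ± 0.05, adjusted p = 0.0323), and in high cells it was -0.05 ± 0.05. Once the 6 high no-feature libraries were omitted, these did not pass, while their fold changes stayed of similar size. NAB1 was then -0.19 ± 0.10 in high cells (adjusted p = 0.849), and MBP -0.53 ± 0.15 in high (adjusted p = 0.421) and 0.47 ± 0.11 in low cells (adjusted p = 0.187). EZH2 was then -0.30 ± 0.09 in bulk (adjusted p = 1) and -0.26 ± 0.07 in low cells (adjusted p = 0.438).

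By edgeR over all libraries 0 other POU-domain genes, 0 reported regulators of POU3F2, 0 neural factors and 0 melanocyte factors were called between treatments in bulk, high or low cells. Of the 19 regulators, 2, 4 and 1 had an unadjusted p under 0.05 in bulk, high and low cells, and DESeq2 called 0, 1 and 0. Of the 13 neural factors the unadjusted counts were 3, 4 and 2, with 0 by DESeq2. Of the 12 melanocyte factors they were 4, 4 and 1, with 0, 1 and 0 by DESeq2. Of the 5 other POU genes both counts were 0 in each population. As above, the unadjusted counts have no share of all genes beside them. Without DMSO bulk replicate 1 the regulators gave 2, 5 and 6 calls. Those in high cells were TRPM1 (1.10 ± 0.19), MITF (0.31), TBX3 (-0.51 ± 0.13), AXIN2 (-0.61) and ETV1 (-0.47). The neural factors gave 0, 2 and 2 calls in that fit, and the melanocyte factors 0, 4 and 1. Among all genes tested 2.93%, 10.7% and 5.15% were called in that fit. The change of MITF with sort, 0.36, was called there too, as were 5.71% of all genes. MITF was 0.11 ± 0.10 for bulk, 0.31 ± 0.10 for high and -0.05 ± 0.10 for low cells over all libraries, beside -0.46 ± 0.08, 0.07 ± 0.08 and -0.44 ± 0.08 for POU3F2. These comparisons share libraries with those between sorts.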

How the data were processed

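Poly(A) RNA of sorted or whole WM989 cultures was sequenced paired-end on a NextSeq instrument, per the labels' protocols. The deposited values are whole-number counts per Ensembl gene. STAR, HTSeq and hg19 are named in the submitters' processing notes; their versions, the annotation and the strand setting are not given in the sources used here. The 5 summary lines per library (no feature 12.8% to 28.7%, ambiguous 6.07% to 7.71%) stayed out of library sizes and tests. Of the gene IDs, 52181 were named from a current name table, 345 from GENCODE 29 alone, and 11151 stayed unnamed. No pair of libraries was identical.

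Counts were fitted with edgeR 4.0.16 (R 4.3.3): filterByExpr, TMM scaling, 6 group means over 18 libraries, and robust quasi-likelihood tests with Benjamini-Hochberg adjustment at 0.05. SE is the log2 fold change divided by the root of F. The procedure was run on simulated counts for high against low under DMSO alone, with the same spread for every gene. It found 55.2% of 1.5-fold, 88.1% of 2-fold and 100% of 4-fold changes. These were set in 67, 67 and 66 of 17527 genes. The simulated spread was also set and not estimated from these data, so these shares are not the power of the fits reported here. No comparison between treatments was simulated. Tables and plots used Python 3.11.15 with pandas 2.3.3 and matplotlib 3.10.9. Alternatives were DESeq2 1.42.0, other scalings and filters, a replicate block, a no-feature covariate, the groups compared alone, and leaving libraries out. The fits without the 6 libraries of over 16% no-feature reads, and with that share as a covariate, are reported with the rest in the closing section. The members and gene lists were chosen with earlier results of these data known. Named from each list were up to 4 called genes with the smallest p in each direction and comparison, and any that bear on a statement about the list; pattern neighbours were the 5 highest and 3 lowest correlations (prior count of 2), and genome neighbours the genes directly beside a member. Some genes that enter the counts are not reported here by name.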

Additional observations from a re-analysis of the deposited data

Results flagged for a closer look

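For 6 of the 66 listed genes tested, MBP, EGR1, ETV1, TCF7, SOX6 and HDAC1, every EPZ5676 library lay on 1 side of every DMSO library in high cells and on the other side in low cells, as did 2.56% of all genes tested. The 6 genes were picked by this pattern. The p-values of the change with sort come from the same values and are no independent support for it. MBP, a myelin gene, was -0.58 in high and 0.48 in low cells. Its change with sort was -1.06 on the log2 scale (edgeR, adjusted p = 7.19e-05). Without the 6 libraries rich in reads on no feature that change was -1.001 (adjusted p = 0.87). In bulk cells MBP was 0.30, and the difference between bulk and high cells was not tested. For the other genes the change with sort did not pass over all libraries and passed without DMSO bulk replicate 1, which is in none of the groups compared but enters the shared estimate of spread; in that fit 5.71% of all genes passed. EGR1 was -0.30 in high cells, against 0.72 in low cells (adjusted p of the difference = 0.208, and 0.00524 without that library). ETV1 was -0.47 in high cells, against 0.21 in low cells (adjusted p = 0.51, and 1.77e-06 without it). TCF7 was -0.31 in high cells, against 0.79 in low cells (adjusted p = 0.519, and 0.00618 without it). SOX6 was 0.32 in high cells, against -0.21 in low cells (adjusted p = 0.433, and 0.000117 without it). HDAC1 was 0.12 in high cells, against -0.12 in low cells (adjusted p = 0.326, and 0.0151 without it). Without the 6 libraries rich in reads on no feature none of these 5 passed (adjusted p = 0.997 each). POU3F2 itself was 0.07 in high and -0.44 in low cells, with overlapping libraries in high cells.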

How the results depend on the processing

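Of 81 pairs of a named gene and a comparison, 59 kept their call in every alternative, 73 with each single library left out, and 0 reversed. Single libraries moved POU3F1 to between -4.52 and -4.12 for high against low under DMSO, between -3.70 and -3.46 under EPZ5676, and between -0.22 and 0.46 for EPZ5676 in bulk. POU3F2 stayed between -0.50 and -0.40 for EPZ5676 in bulk, between -0.54 and -0.39 in low cells, and between 0.34 and 0.48 for high against low under EPZ5676. POU3F3 for high against low under EPZ5676 was 0.24 over all libraries and 0.81 without the 6 libraries rich in reads on no feature, and the filter at a mean of 5 CPM removes it. Counts of all genes called depended more on the settings, and the cause was not tested. With the same 6 libraries left out they were 4176 for high against low under EPZ5676 (8858 over all libraries), and 0, 5, 7 and 0 for EPZ5676 against DMSO in bulk, high and low cells and its change with sort (132, 543, 188 and 58 over all libraries). In that order they were 440, 948, 373 and 304 with no filter, and 2, 1413, 1028 and 863 in a fit of the groups compared alone. DESeq2 gave 290 in bulk, 311 in low cells and 182 for the change with sort, and the no-feature share as a covariate gave 50 in bulk. With single libraries left out the counts ran from 39 to 550 in bulk, 200 to 2018 in high cells, 60 to 968 in low cells and 14 to 1072 for the change with sort, each highest without DMSO bulk replicate 1. They ran from 9474 to 10798 for high against low under DMSO and from 8033 to 9496 under EPZ5676. Same-numbered libraries did not deviate together (correlations of -0.34 to 0.30), and a replicate block gave 129, 525 and 173 calls for EPZ5676 in bulk, high and low cells. Depth limits POU3F3, at 5 to 31 counts a library, and POU3F1 in high cells.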
